A study of Mus musculus with 12 samples.

Results

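The sirtuins are a family of NAD-dependent deacylases, and the genes Sirt1, Sirt2, Sirt3, Sirt4, Sirt5, Sirt6 and Sirt7 were taken by name from an expression table of 14143 genes. All 7 were found, once each, and all 7 were among the 10900 genes that reached 1 FPKM (fragment counts divided by transcript length and by library size) in at least 3 libraries and were therefore tested. The table holds 12 RNA-seq libraries from haematopoietic stem cells (HSCs) sorted from female C57BL/6 mice. Young mice were 8 to 10 weeks old by the sample labels and up to 12 weeks by the protocol, and old mice were 18 months old. The young animals came from the Jackson Laboratory or a university colony and the old ones from the National Institute on Aging colony, so age and supplier cannot be told apart. No genotype, transgene or treatment distinguished the groups. HSCs were sorted as lineage-negative Sca-1+ c-kit+ CD48- CD135- cells and divided by CD150 into lymphoid-biased HSCs (Ly-HSCs, CD150 low) and myeloid-biased HSCs (My-HSCs, CD150 high). This gave 4 groups of 3 libraries: young Ly-HSCs, old Ly-HSCs, young My-HSCs and old My-HSCs. The libraries of an age came from 3 independent groups of mice, and how many mice made up each is not given.

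Sirtuins split NAD to remove acetyl or longer acyl groups from lysines, so their activity depends on how much NAD a cell makes and how much other enzymes consume. SIRT1, SIRT6 and SIRT7 are mainly nuclear, SIRT2 is mainly cytosolic, and SIRT3, SIRT4 and SIRT5 are mitochondrial. In HSCs the family is known from mouse genetics: SIRT1, SIRT3, SIRT6 and SIRT7 have each been linked to stem cell maintenance, through FOXO factors, mitochondrial oxidative defence, Wnt target chromatin and the mitochondrial unfolded protein response. Those links concern protein function, and what follows concerns transcript levels in sorted populations, where fewer expressing cells and less RNA per cell cannot be told apart.

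The 7 genes lie on 5 chromosomes of GRCm38 by the GENCODE M21 annotation, 5 of them on the minus strand. Sirt1 (chr10:63319005-63381704) and Sirt6 (chr10:81621785-81627797) share chromosome 10, and Sirt2 (chr7:28766735-28788661) and Sirt3 (chr7:140863666-140882309) share chromosome 7. Sirt4 is at chr5:115478010-115484725, Sirt5 at chr13:43365496-43395203 and Sirt7 at chr11:120618372-120625240. Exons of 4 members overlap exons of another annotated gene, and Sirt3 has the largest overlaps, 418 bases with Ric8a and 342 bases with Psmd13, both on the opposite strand. Sirt7 shares 124 exon bases with Mafg on the same strand. Sirt2 shares 42 bases with Nfkbib and Sirt1 65 bases with the antisense gene Gm16145, both on opposite strands. The library kit kept strand, but the sources used here do not say whether the counting used it, and reads from these stretches may have been credited to either gene.

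Sirt3 and Psmd13, which encodes a proteasome lid subunit, begin head to head, and the sequence between their starts is shown because it is short enough to serve both genes and because their levels are set side by side further on. The stretch lies at chr7:140881870-140881967 (GRCm38.p6, 98 bases, plus strand, 5′ to 3′), between a Sirt3 start at 140881869 and the Psmd13 start at 140881968, with every CpG dinucleotide (CG, which reads the same on both strands) in capitals.
Sirt3 to Psmd13: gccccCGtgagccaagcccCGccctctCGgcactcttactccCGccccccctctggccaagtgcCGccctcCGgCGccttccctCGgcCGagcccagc
It is 76.5% G or C and holds 9 CpGs. Other annotated Sirt3 transcripts begin further upstream, inside the 5′ part of Psmd13, which gives the overlap of 342 bases. RefSeq start windows of 300 bases (GRCm38.p6) were found for all 7 sirtuins, 9 windows in all. Their observed over expected CpG ratio ran from 0.52 at Sirt5 to 1.09 at Sirt1, all above the median of 0.384 over 32851 windows of the same length. Their G and C content ran from 50% at Sirt2 to 79.0% at Sirt1, against a median of 52.7%.

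The libraries differed in ways that bear on these genes. The share of the table's genes listed at 0 ran from 12.1% to 34.1%, was highest in young Ly-HSC library 1, and was 19.3% to 34.1% in the young libraries against 12.1% to 22.3% in the old ones. Read totals are unknown, so no counting error can be attached to an FPKM. Of 10 HSC markers, 8 were in the table. Their summed level was 326 to 397 FPKM in old Ly-HSCs, below every other library, 407 to 542 FPKM in young Ly-HSCs and 476 to 547 FPKM in My-HSCs. Slamf1, which encodes CD150, ran from 1.39 to 8.33 FPKM in Ly-HSC libraries and from 15 to 35.3 FPKM in My-HSC libraries, as the sort would have it. Multipotent progenitor markers summed to 53.2 to 90.6 FPKM in Ly-HSC libraries and 9.91 to 25.5 FPKM in My-HSC libraries. Granulocyte markers (Prtn3, Mmp9 and Itgam, the 3 of 12 in the table) summed to 77.8 to 300.1 FPKM in the old libraries and 1.79 to 56.9 FPKM in the young ones, without overlap, and to 297 and 300.1 FPKM in old Ly-HSC and old My-HSC library 1. By itself only Prtn3 separated the ages, at 54.0 to 106 FPKM in old and 1.42 to 37.7 FPKM in young libraries. Itgam overlapped, with 32.9 FPKM in young Ly-HSC library 3 and 18.0 FPKM in old My-HSC library 3. Mmp9 did too, with 1.21 FPKM in young and 0.372 FPKM in old Ly-HSC library 2. Erythroid markers (6 of 11 in the table) summed to 84.1 and 60.1 FPKM in those 2 libraries and to at most 24.4 FPKM elsewhere. Cell cycle markers (19 of 21 in the table) summed to 318 to 517 FPKM in young and 510 to 668 FPKM in old Ly-HSCs, and to 392 to 562 FPKM in young and 363 to 453 FPKM in old My-HSCs. The part of these marker differences in the sirtuin levels was not tested. The age differences that depend most on a library numbered 1 are therefore given below with and without it.

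Over the 12 libraries Sirt3 had the highest mean level, 26.1 ± 11.6 FPKM (SD, n = 12), followed by Sirt1 at 17.5 ± 5.77, Sirt2 at 12.9 ± 3.62, Sirt7 at 10.8 ± 4.40, Sirt5 at 8.91 ± 8.86, Sirt4 at 6.72 ± 5.42 and Sirt6 at 5.31 ± 2.59 FPKM. FPKM is a level per transcript length, so these can be ranked. By their median, the members stood between the 43.1th percentile (Sirt6) and the 79.2th percentile (Sirt3) of all genes in the table. None was called between any groups by limma at a Benjamini-Hochberg adjusted p under 0.05, in 7 comparisons of age, subset and their interaction, nor under any alternative processing tried. The members are described below one by one, the nuclear enzymes first, with differences in log2(FPKM + 1), a scale that understates changes of low genes.

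**Figure D1:**
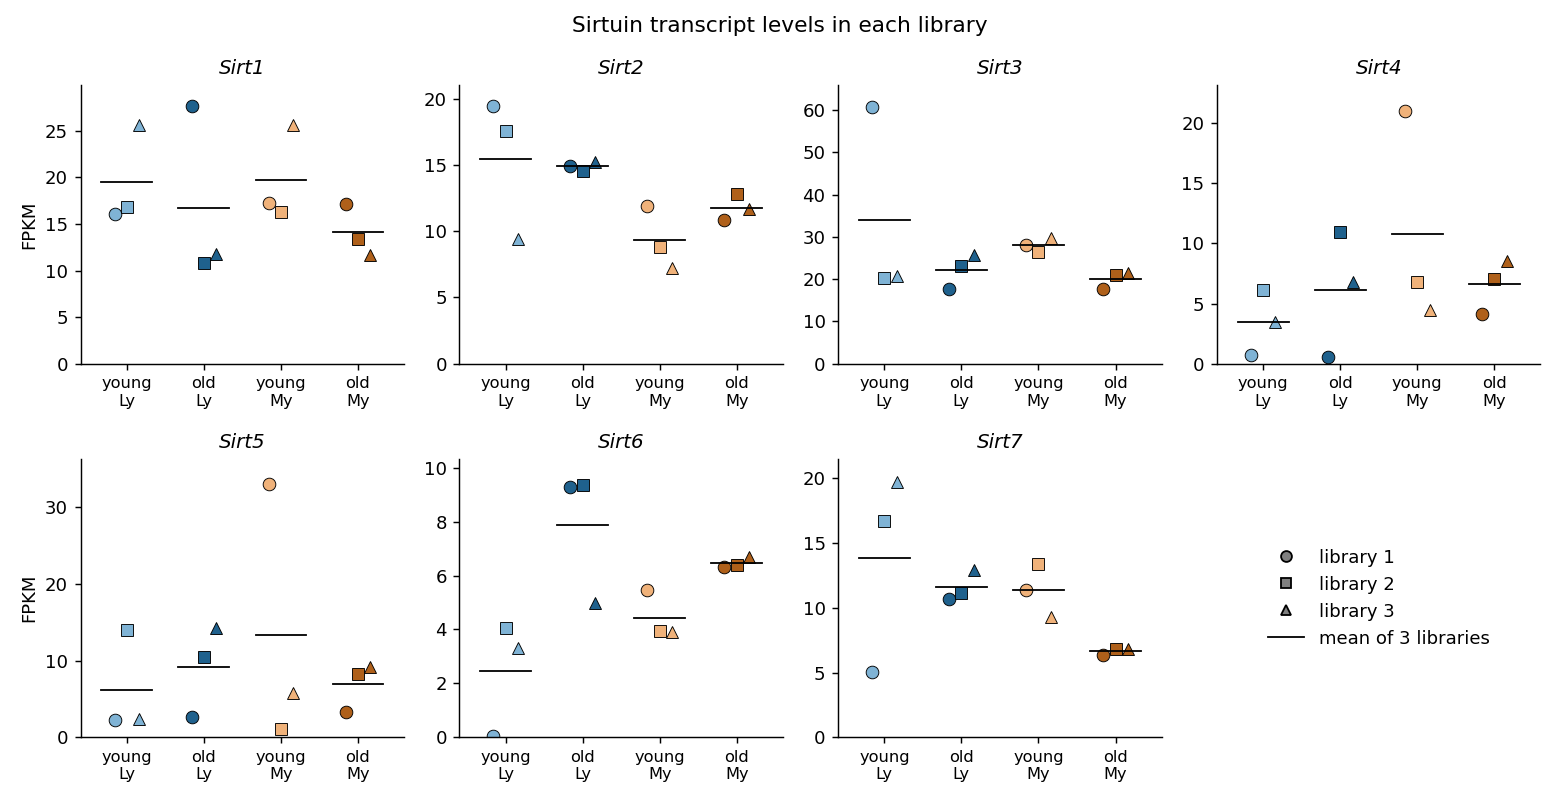
FPKM of each sirtuin (vertical axes, starting at 0 and scaled per gene) in the 3 libraries of each group; marker shapes give the library number and bars the group means. Sirt3 at 60.6 and Sirt6 at 0.0529 both come from young Ly-HSC library 1, and the Sirt6 points of old My-HSCs lie between 6.33 and 6.69.

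Sirt1 encodes the nuclear deacetylase of p53 and FOXO factors. Its level was 16.1, 16.8 and 25.7 FPKM in young Ly-HSC libraries 1 to 3 and 27.7, 10.9 and 11.8 FPKM in old Ly-HSC libraries 1 to 3. In My-HSCs it was 17.2, 16.3 and 25.6 FPKM in young libraries and 17.2, 13.4 and 11.7 FPKM in old ones. Old libraries 2 and 3 of both subsets were the lowest 4 of the 12, while old library 1 was within or above the young range in both subsets. The age difference was -0.30 ± 0.37 (SE) in Ly-HSCs and -0.44 ± 0.37 in My-HSCs, with limma adjusted p of 0.762 and 0.926. Without the 4 libraries numbered 1 it was -0.82 in Ly-HSCs (unadjusted p = 0.0345, adjusted p = 0.301, limma) and -0.66 in My-HSCs (adjusted p = 0.645, limma). Of the 22 alternatives in Ly-HSCs, only that 1 had an unadjusted p under 0.05. The subsets had close mean levels at each age, and the My-HSC minus Ly-HSC difference was 0.01 in young mice (95% interval -0.79 to 0.81) and -0.13 in old mice (-0.93 to 0.67).

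Sirt6 encodes a chromatin deacylase that acts in DNA repair and telomere maintenance. It had the lowest mean of the family in young Ly-HSCs, at 0.0529, 4.06 and 3.30 FPKM in libraries 1 to 3, and stood at 9.29, 9.37 and 4.97 FPKM in old Ly-HSCs. Young My-HSC libraries had 5.46, 3.94 and 3.90 FPKM and old My-HSC libraries 6.33, 6.40 and 6.69 FPKM. In each subset all 3 old libraries were above all 3 young ones. It was the only member with an unadjusted p under 0.05 in any comparison. The old minus young difference was 1.60 ± 0.58 in Ly-HSCs (95% interval 0.36 to 2.84), with a limma p of 0.0155 and an adjusted p of 0.260. Averaged over both subsets it was 1.04 ± 0.41, with a limma p of 0.0242 and an adjusted p of 0.256. Neither passed the adjusted threshold, and an unadjusted p under 0.05 was reached by 13.3% and 14.7% of all tested genes in those comparisons. The averaged fit took all libraries as independent. Same-numbered old libraries of the 2 subsets were correlated, as given under the processing, so its SE and p do not allow for that correlation. Young Ly-HSC library 1, with the most genes at 0, held much of the size in Ly-HSCs: without it the difference was 0.88 (limma adjusted p = 0.384), and without the 4 libraries numbered 1 it was 0.75. With the share of genes at 0 as a covariate it was 0.93 (limma adjusted p = 0.779), and with quantile normalization 0.82 (limma adjusted p = 0.516). In My-HSCs the difference was 0.47 ± 0.58 (limma adjusted p = 0.957). The age effects of the 2 subsets differed by -1.13 ± 0.81 (My-HSCs minus Ly-HSCs, limma adjusted p = 0.924), so no difference between them was detected. Granulocyte marker sums were also higher in every old library than in every young one, as given above. Among those markers Prtn3 alone had this split, and Itgam and Mmp9 overlapped between the ages. HSC marker sums were lower in old than in young Ly-HSCs.

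Sirt7 encodes a nucleolar and chromatin deacylase tied to ribosomal RNA synthesis and to NRF1-dependent mitochondrial genes. Young Ly-HSC libraries had 5.01, 16.7 and 19.7 FPKM, and old Ly-HSC libraries 10.6, 11.1 and 12.9 FPKM, inside the young range. In My-HSCs the level was 11.4, 13.3 and 9.25 FPKM in young libraries and 6.33, 6.79 and 6.79 FPKM in old ones. Old My-HSCs were thus below young My-HSCs and also below old Ly-HSCs in every library. The differences were -0.68 ± 0.44 against young My-HSCs (limma adjusted p = 0.869) and -0.71 ± 0.44 against old Ly-HSCs (limma adjusted p above 0.999), and neither passed the threshold. With a replicate block in the 6 old libraries, the latter had a limma unadjusted p of 0.0268 and an adjusted p of 0.374. Whether the library numbers paired these samples was not settled. Of the 23 alternatives of that difference, 6 had an unadjusted p under 0.05, none an adjusted one. In Ly-HSCs the age difference was -0.05 ± 0.44 with young library 1, the lowest of the 12, and -0.61 without it (limma adjusted p = 0.417).

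Sirt2 encodes the mainly cytosolic tubulin deacetylase, which also restrains the NLRP3 inflammasome. Its level was 19.4, 17.5 and 9.37 FPKM in young Ly-HSCs and 14.9, 14.6 and 15.2 FPKM in old Ly-HSCs. My-HSC libraries had 11.9, 8.77 and 7.23 FPKM when young and 10.9, 12.8 and 11.7 FPKM when old. Old Ly-HSC libraries lay closer to each other than those of any other group, and they were above all 3 old My-HSC libraries. Among the young, only Ly-HSC library 3 fell into the My-HSC range. The My-HSC minus Ly-HSC difference was -0.64 ± 0.34 in young mice, -0.32 ± 0.34 in old mice and -0.48 ± 0.24 averaged over both ages, with limma adjusted p of 0.425, above 0.999 and 0.481. The age difference was 0.01 (95% interval -0.72 to 0.74) in Ly-HSCs and 0.33 (-0.40 to 1.06) in My-HSCs. The former was below 0 with all 3 other scalings, at -0.062 with median-of-ratios scaling.

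Sirt3 encodes the main mitochondrial deacetylase, whose substrates include SOD2 and IDH2. It stood at 60.6, 20.3 and 20.7 FPKM in young Ly-HSC libraries 1 to 3 and at 17.6, 23.2 and 25.7 FPKM in old Ly-HSCs. My-HSCs had 28.1, 26.5 and 29.8 FPKM when young and 17.7, 21.1 and 21.4 FPKM when old, so the old libraries were all below the young ones in that subset. The difference in My-HSCs was -0.47 ± 0.36 (95% interval -1.24 to 0.30, limma adjusted p = 0.914). In a fit of those 6 libraries alone, its unadjusted p was 0.0386 and its adjusted p 0.391 (limma). Of the 22 alternatives of this difference, 2 had an unadjusted p under 0.05 and none an adjusted one. In Ly-HSCs it was -0.41 ± 0.36 (limma adjusted p = 0.642), and it turned to 0.09 without young Ly-HSC library 1 and to 0.24 without the 4 libraries numbered 1. Averaged over both subsets it was -0.44 ± 0.25 (limma adjusted p = 0.454), which became -0.19 on leaving out young Ly-HSC library 1, and -0.073 on leaving out the 4 libraries numbered 1.

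The high Sirt3 value of young Ly-HSC library 1 was not shared by the genes that overlap it. Psmd13, across the CpG-rich stretch printed above, had 4.81, 8.79 and 3.80 FPKM in young Ly-HSCs and 22.3, 13.6 and 12.0 FPKM in old Ly-HSCs. In My-HSCs Psmd13 had 6.74, 14.4 and 6.31 FPKM when young and 28.8, 13.3 and 10.3 FPKM when old. Ric8a, at the other end of Sirt3, had 18.7, 24.2 and 25.2 FPKM in young Ly-HSCs, and the remaining libraries ranged from 19.1 to 38.5 FPKM. Psmd13 was highest in the old libraries numbered 1, where Sirt3 was lowest, so these 2 neighbours did not follow each other across the libraries.

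Sirt4 encodes a mitochondrial enzyme that acts on glutamate dehydrogenase and pyruvate dehydrogenase. Ly-HSC libraries had 0.701, 6.14 and 3.50 FPKM when young and 0.587, 10.9 and 6.76 FPKM when old. My-HSC libraries had 21, 6.75 and 4.44 FPKM when young and 4.13, 7.06 and 8.57 FPKM when old. Groups overlapped in each of the 4 comparisons. The largest difference was 1.36 ± 0.79 for My-HSCs minus Ly-HSCs in young mice (95% interval -0.35 to 3.07, limma adjusted p = 0.466). The age difference was 0.48 in Ly-HSCs and -0.41 in My-HSCs, and each changed sign when 1 library was left out, to -0.10 without young Ly-HSC library 1 and to 0.18 without young My-HSC library 1.

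Sirt5 encodes the mitochondrial desuccinylase and demalonylase. It was 2.30, 14.0 and 2.42 FPKM in young Ly-HSCs and 2.72, 10.5 and 14.2 FPKM in old Ly-HSCs. In My-HSCs it was 33, 1.13 and 5.84 FPKM when young and 3.25, 8.25 and 9.24 FPKM when old. The highest and the lowest of the 12 values were both young My-HSC libraries. Its age difference was 0.65 ± 0.93 in Ly-HSCs (95% interval -1.36 to 2.65) and -0.10 ± 0.93 in My-HSCs (-2.10 to 1.91), and the latter became 0.95 without young My-HSC library 1. Intervals this wide do not show that the groups were alike.

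**Figure D2:**
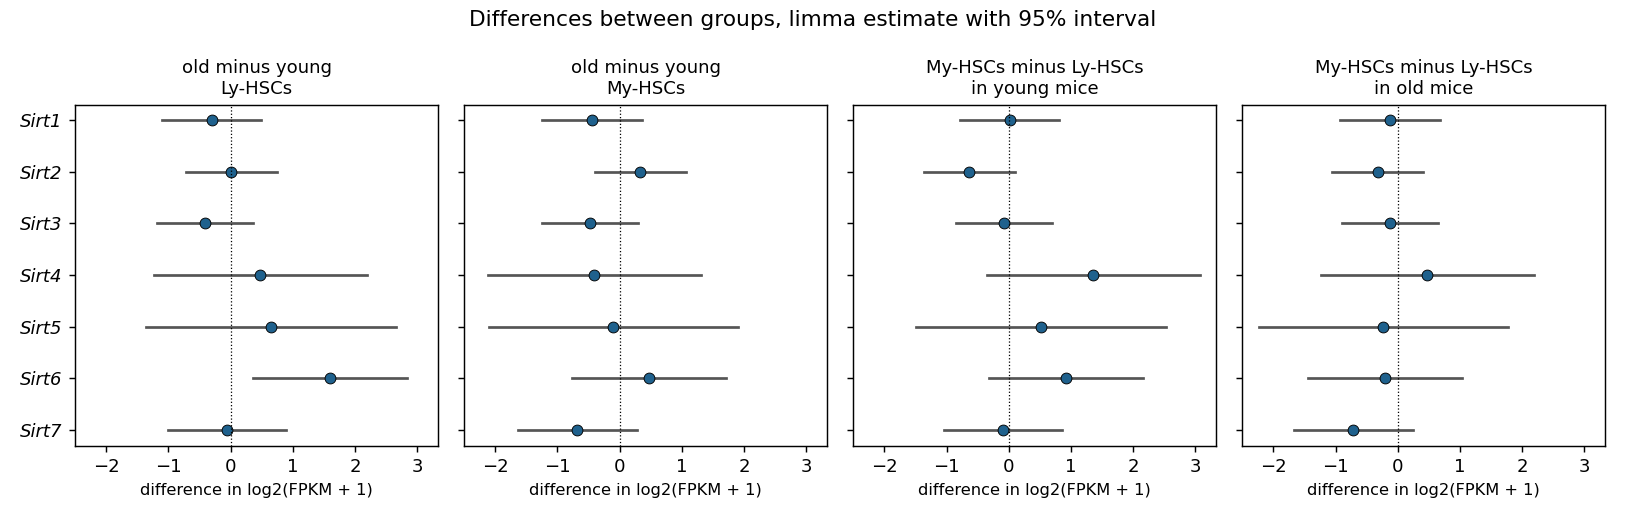
Differences between groups in log2(FPKM + 1) (horizontal axis) for each sirtuin in 4 comparisons; points are limma estimates from 12 libraries and lines their 95% intervals. The interval of Sirt6 in old minus young Ly-HSCs, 0.36 to 2.84, is the only one of the 28 that leaves out 0, and those of Sirt4 and Sirt5 are the widest.

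The members differed in how well replicates matched. The pooled SD within groups, in log2(FPKM + 1), was 1.34 for Sirt5 and 1.09 for Sirt4, at the 96.9th and 89.6th percentiles of all tested genes. It was 0.67 for Sirt6, 0.51 for Sirt7, 0.47 for Sirt3, 0.45 for Sirt1 and 0.32 for Sirt2, against a median of 0.57 over all tested genes. Among the old libraries, library 1 of both subsets was the highest of its group for Sirt1 and the lowest for Sirt3, Sirt4, Sirt5 and Sirt7. For Sirt2 and Sirt6 it did not stand at a shared end. The share of all tested genes with such a match was not computed. Over all tested genes, deviations of these libraries from their group means correlated at 0.256, so the matches are not read as a trait of the sirtuins. The old libraries numbered 1 had the summed granulocyte marker levels of 297 and 300.1 FPKM, and the part of those markers in the sirtuin levels was not tested. Sirt4 and Sirt5 had a Pearson r of 0.71 across the 12 libraries, and of 0.68 over the 11 without young Ly-HSC library 1. These values describe libraries that differ in subset, age and share of genes at 0. Sirt3 and Sirt6 had an r of -0.86, which became -0.42 without young Ly-HSC library 1.

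**Figure D3:**
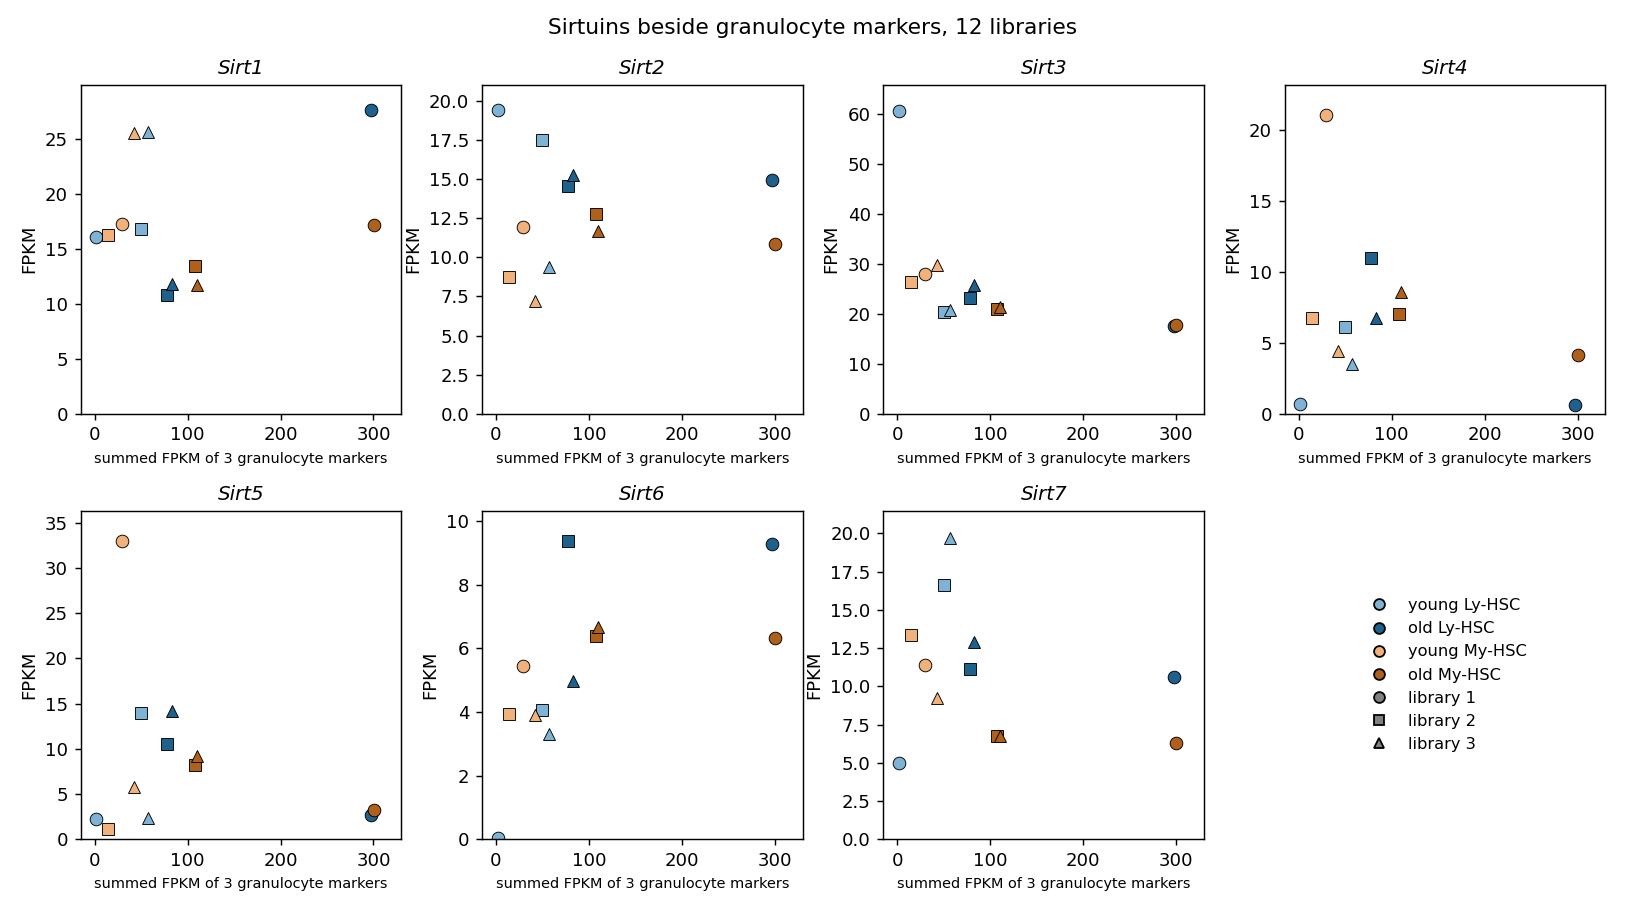
FPKM of each sirtuin (vertical axes) against the summed FPKM of the granulocyte markers Prtn3, Mmp9 and Itgam (horizontal axis) in 12 libraries; colour gives the group and shape the library number. The 2 points at 297 and 300.1 are the old libraries numbered 1, where Sirt5 was 2.72 and 3.25 FPKM. Sirt5 was lower still at small marker sums. It was 2.30 and 2.42 FPKM in young Ly-HSC libraries 1 and 3 (sums 1.79 and 56.9) and 1.13 FPKM in young My-HSC library 2 (sum 14.2).

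Read as a family, the members did not all differ in 1 direction with age in either subset. In old against young Ly-HSCs 4 members were higher and 3 lower, with a median difference of 0.01 against 0.18 over all tested genes. In old against young My-HSCs 2 were higher and 5 lower, with a median of -0.41 against 0.07. For My-HSCs against Ly-HSCs, 4 were higher and 3 lower in young mice (median 0.01 against 0.13), and 1 was higher and 6 lower in old mice (median -0.20 against 0.02). No member was called in these comparisons, in which 0.349%, 0.211%, 0.119% and 0.0275% of all tested genes were called. Averaged over subsets or ages, 0 of 7 were called beside 0.844% of all genes for age and 0.413% for subset. The age effect was lower in My-HSCs than in Ly-HSCs for 6 members and higher for 1, with a median of -0.62 against -0.12 over all tested genes. It was higher for 42.8% of all tested genes. Of the 11 zinc-dependent histone deacetylases it was lower for 10 and higher for 1 (median -0.41), so the lean was not particular to the sirtuins. For this difference between the age effects, limma called none of the 10900 genes, of which 616 (5.65%) had an unadjusted p under 0.05, none of them a sirtuin. In the comparisons where 0 of 7 sirtuins had such a p, the share of all tested genes that did was 7.21% for age in My-HSCs, 13.8% and 4.03% for subset in young and in old mice, and 11.2% for subset averaged over both ages.

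Counts of members whose libraries did not overlap between groups can be set against the same count over all tested genes. For age in My-HSCs it was 3 of 7, Sirt6 higher and Sirt3 and Sirt7 lower, beside 19.1% of all tested genes (11.3% higher and 7.8% lower). For age in Ly-HSCs it was 1 of 7, Sirt6 higher, beside 16% (11.5% higher and 4.5% lower). For subset in old mice it was 2 of 7, Sirt2 and Sirt7 lower in My-HSCs, beside 16.7% (9.19% higher and 7.53% lower). For subset in young mice it was 0 of 7, beside 13.4% (8.97% higher and 4.41% lower). With so few members these counts do not set the family apart.

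The 7 members summed to 94.8 ± 9.76 FPKM in Ly-HSCs of young mice and 88.6 ± 4.42 FPKM in those of old mice (SD, n = 3). My-HSC sums were 96.9 ± 27.4 FPKM for young mice and 72.6 ± 5.84 FPKM for old mice. Old My-HSC libraries had the lowest sums, 65.8, 75.8 and 76.1 FPKM, and the next lowest was 76.6 FPKM in young My-HSC library 2, close above them. Sirt3 and then Sirt1 led in each group. In old My-HSCs the ranges of Sirt3 and Sirt1 did not overlap, nor did those of Sirt2 and Sirt5, and the members ranked below Sirt2 (Sirt5, Sirt7, Sirt4 and Sirt6) had overlapping ranges. In young My-HSCs Sirt3 was clear of Sirt1 and Sirt2 was clear of Sirt6, and in old Ly-HSCs Sirt2 was clear of Sirt7. All other neighbours in the order, including every pair in young Ly-HSCs, overlapped. The share of Sirt6 in the family sum averaged 2.73 ± 2.33% for young against 8.97 ± 3.09% for old Ly-HSCs. It ran from 0.0507% in library 1 to 4.25% in the young and from 5.42% to 11.1% in the old Ly-HSC libraries. For My-HSCs it averaged 4.64 ± 0.449% when young and 8.95 ± 0.604% when old. Sirt2 took 9.72 ± 1.56% of the sum in young My-HSCs and 16% to 16.9% on average in the other groups.

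**Figure D4:**
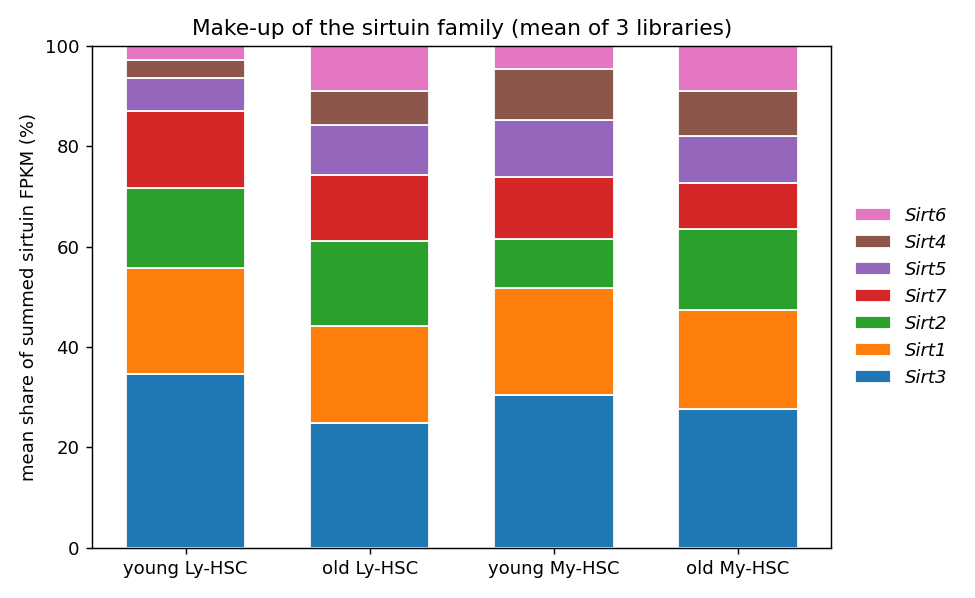
Mean share of each sirtuin in the family's summed FPKM (vertical axis, percent) in the 4 groups, as the mean of 3 libraries without error bars. The top band, Sirt6, averages 2.73% and 4.64% in the young groups and 8.97% and 8.95% in the old ones.

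Genes whose pattern over the 12 libraries was most like that of a member were named by the largest Pearson r of log2(FPKM + 1) among all tested genes, and no shared function is implied. For Sirt1 they were Nnt (0.85), Ypel3 (0.81) and Mtus1 (0.80), and for Sirt2 Vasp (0.91), Ddx55 (0.89) and Sap30 (0.85). Sirt3 was most like Fam222b (0.95), Exoc7 (0.93) and Nr2c2 (0.92), and Sirt4 most like Rad54l2 (0.94), Shc1 (0.92) and Slc25a24 (0.92). Sirt5 had Efcab5 (0.89), Gstm4 (0.87) and Wdr45 (0.85). For Sirt6 they were Sec23b (0.96), Rrp12 (0.96) and Igtp (0.95), and for Sirt7 Ciz1 (0.96), Tubgcp6 (0.93) and Clasrp (0.92). Nnt encodes the mitochondrial enzyme that couples NADH to NADPH, and it was also on the list of NAD genes. Values this high are the extremes of 10900 genes over 12 libraries in which 1 library can carry much of the variance.

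The enzymes that make the sirtuins' cosubstrate were read from a list of 23 NAD synthesis and transport genes, 14 of which were tested. None was called for age in either subset or for subset at either age. In old against young Ly-HSCs 10 were higher and 4 lower (median 0.33 against 0.18 over all genes), and in old against young My-HSCs 6 were higher and 8 lower (median -0.18 against 0.07). Nampt, the rate-limiting enzyme of NAD salvage, had 11.1, 9.93 and 17.6 FPKM in young My-HSCs and 32.3, 31.7 and 26.5 FPKM in old My-HSCs, without overlap. Its age difference there was 1.20 ± 0.30 (95% interval 0.55 to 1.86, unadjusted p = 0.00158), and it missed the threshold with a limma adjusted p of 0.204. It passed with 1 weight per group (limma adjusted p = 0.0460). Nampt in Ly-HSCs was 23.5, 16.3 and 30.7 FPKM when young and 31.5, 27 and 20.3 FPKM when old, which overlapped. The age effect was larger in My-HSCs by 1.03 ± 0.43, with a limma adjusted p of 0.864. Among the young, My-HSCs had less Nampt than Ly-HSCs by 0.82 (difference -0.82 ± 0.30, limma adjusted p = 0.268), with 1 overlapping library on each side.

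Nadk2, the mitochondrial NAD kinase, had 22.0, 22.4 and 17.3 FPKM in young Ly-HSCs and 30.7, 33.8 and 33.1 FPKM in old Ly-HSCs. It differed there by 0.64 ± 0.23 (limma adjusted p = 0.260), and by 0.42 ± 0.23 in My-HSCs (limma adjusted p = 0.809), where it ranged from 33.1 to 38.8 FPKM when young and from 35.6 to 62.7 FPKM when old. The latter was 0.24 without old My-HSC library 3, 0.64 without old My-HSC library 1 and 0.66 without the 4 libraries numbered 1. Nmnat1, which makes nuclear NAD, varied from 0.896 to 20.6 FPKM among young Ly-HSC libraries alone. Nmnat3, the mitochondrial adenylyltransferase, had 9.81, 15.7 and 10.3 FPKM in young and 6.05, 10.8 and 12.6 FPKM in old Ly-HSCs, and 29.2, 11 and 19.6 FPKM in young and 14.5, 11.5 and 13.6 FPKM in old My-HSCs.

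The list of other NAD-consuming enzymes gave the 2 called genes of all the lists, of 15 tested from 20 listed. Both were higher in My-HSCs than in Ly-HSCs averaged over both ages, a comparison in which 0.413% of all tested genes were called. Art4 encodes an ADP-ribosyltransferase family member known as the Dombrock antigen. It was listed by family, and transcript levels do not show that its product uses NAD. It had 68.8, 35.0 and 39.1 FPKM in young and 61.1, 64.6 and 74.8 FPKM in old Ly-HSCs, and 88.5, 98.7 and 75.9 FPKM in young and 129, 142 and 144 FPKM in old My-HSCs. Every My-HSC library was above every Ly-HSC library. The difference was 0.98 ± 0.16 (n = 12, limma adjusted p = 0.0187), and it lost its call in 6 of 21 alternatives, with adjusted p from 0.000994 to 0.0746. Those were the fit with the share of genes at 0 and the fits without old Ly-HSC library 1 or 2, young My-HSC library 2, or old My-HSC library 2 or 3. Old against young, Art4 differed by 0.66 ± 0.23 in My-HSCs (limma adjusted p = 0.504) and by 0.60 ± 0.16 averaged over both subsets (limma adjusted p = 0.116).

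Cd38 encodes the ectoenzyme that is a main NAD glycohydrolase of blood cells. In Ly-HSCs it was listed at 0, 0.0203 and 0 FPKM in young libraries and at 0.0231, 1.43 and 0.717 FPKM in old ones. In My-HSCs it was 9.25, 0.895 and 5.71 FPKM when young and 5.12, 10.6 and 9.39 FPKM when old. Young My-HSC library 2 was the only one of the My-HSC libraries inside the Ly-HSC range. The difference was 2.41 ± 0.44 (n = 12, limma adjusted p = 0.0316). The call held in 8 of 21 alternatives, with adjusted p from 0.0158 to 0.181. It was lost without each of 8 libraries (young Ly-HSC 3, old Ly-HSC 1, 2 and 3, young My-HSC 1 and 3, and old My-HSC 2 and 3), without the 4 libraries numbered 1 (2.12, limma adjusted p = 0.115), with quantile normalization, with 1 weight per group, with the share of genes at 0 as covariate, and with the replicate block (limma adjusted p = 0.0703). With a pseudocount of 0.1 the difference was 4.53, and with TPM 3.84. The sort that separated the subsets used CD150 and not CD38. Multipotent progenitor markers differed along the same split, at 53.2 to 90.6 FPKM in Ly-HSC and 9.91 to 25.5 FPKM in My-HSC libraries, and their part in the Art4 and Cd38 differences was not tested.

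Parp1, the main poly(ADP-ribose) polymerase of DNA repair, had age differences of opposite sign in the 2 subsets, without passing the threshold. It had 43.2, 59.6 and 54.0 FPKM in young and 69.2, 61.2 and 66.3 FPKM in old Ly-HSCs, and 68.6, 62.3 and 66.0 FPKM in young and 50.3, 58.2 and 44.5 FPKM in old My-HSCs. Old libraries were thus all higher in Ly-HSCs and all lower in My-HSCs. The summed cell cycle markers leaned the same ways with overlap, at 318 to 517 against 510 to 668 FPKM in Ly-HSCs and 392 to 562 against 363 to 453 FPKM in My-HSCs (young against old). Single markers did not all follow the sum in My-HSCs. Mcm6 was lower with age there, at 84.6 to 99.3 FPKM when young and 56.2 to 64.7 FPKM when old. Rrm2 was higher there, at 0.0258 to 2.07 FPKM when young and 3.995 to 4.55 FPKM when old. The part of these markers in the Parp1 and Xrcc6 levels was not tested. The difference between the age effects of Parp1 was -0.70 ± 0.25 (unadjusted p = 0.0167, limma adjusted p = 0.864). Xrcc6, which encodes the KU70 subunit deacetylated by SIRT1, had the same layout, with 12.9, 28.9 and 30.3 FPKM in young and 47.6, 34.2 and 38.7 FPKM in old Ly-HSCs. In My-HSCs Xrcc6 had 39.7, 33.2 and 30.1 FPKM when young and 20.7, 23.9 and 24.3 FPKM when old, and its age effects differed by -1.35 ± 0.42 (unadjusted p = 0.00700, limma adjusted p = 0.803), or by -0.67 without the 4 libraries numbered 1. Parp9 and Parp4, both ADP-ribosyltransferase family members, differed in old against young Ly-HSCs by 0.84 ± 0.28 and -0.56 ± 0.19, with limma adjusted p of 0.234 and 0.237.

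**Figure D5:**
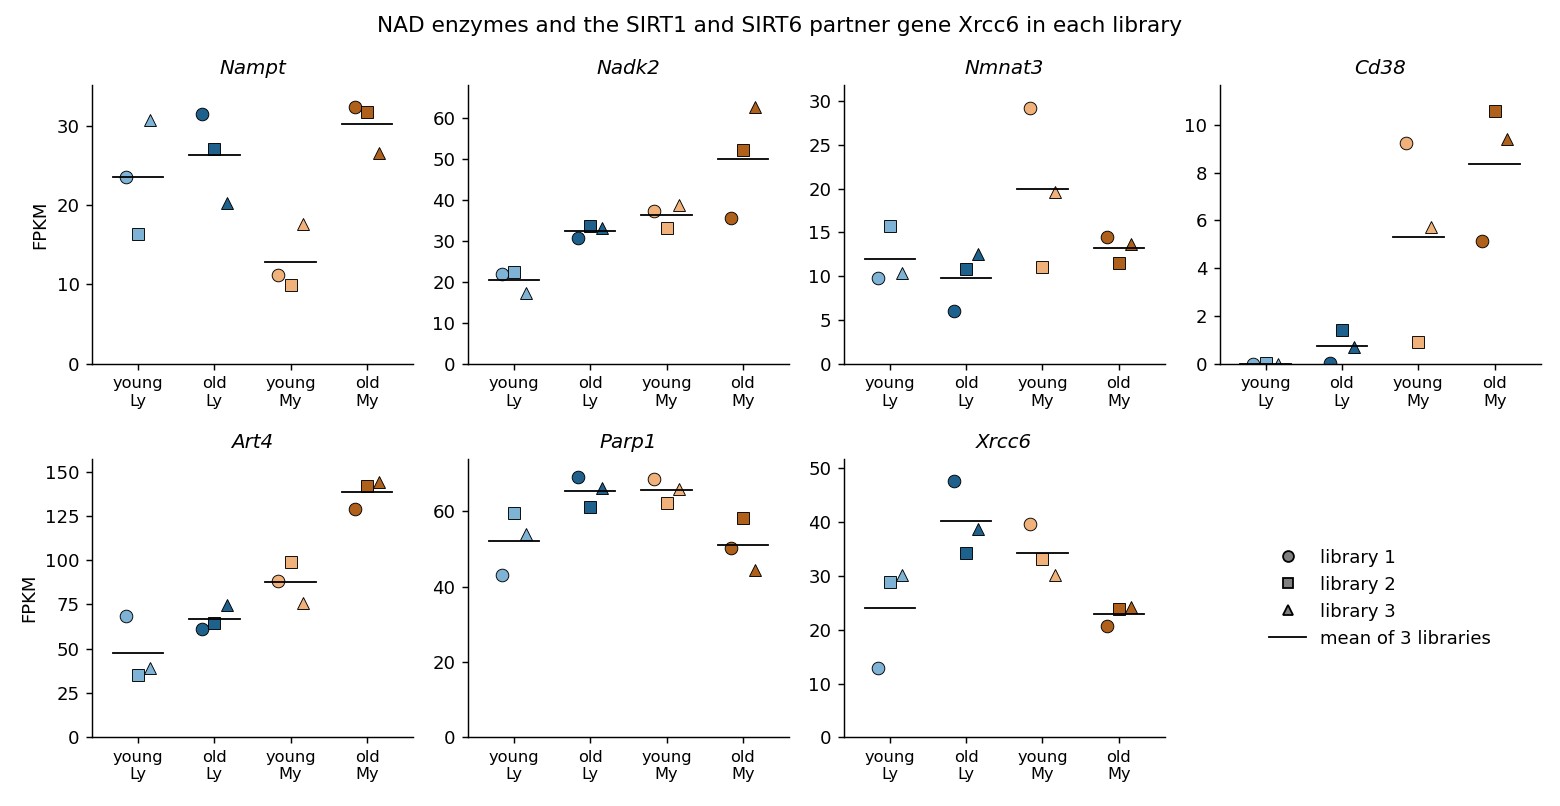
FPKM (vertical axes, starting at 0) of 6 genes from the NAD lists and of Xrcc6 in the 3 libraries of each group, with group means as bars and library numbers as shapes. Art4 and Cd38 were called between subsets averaged over both ages; Nampt was 9.93 to 17.6 in young and 26.5 to 32.3 in old My-HSCs, a difference that missed the threshold.

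Zinc-dependent histone deacetylases, the other deacetylase family and the nearest comparison, had all 11 members in the table and tested, and none called in any of the 7 comparisons. In old against young Ly-HSCs 9 were higher and 2 lower (median 0.42), beside 62.4% of all tested genes higher and an all-gene median of 0.18. In old against young My-HSCs 3 were higher and 8 lower (median -0.18), beside 55.8% of all tested genes higher and an all-gene median of 0.07. Hdac11 had the smallest p in Ly-HSCs, with 2.80, 5.53 and 9.47 FPKM when young and 15.0, 14.1 and 18.0 FPKM when old (difference 1.38 ± 0.44, limma adjusted p = 0.202). Hdac1 differed there by 0.72 ± 0.34 (limma adjusted p = 0.386), and by 0.30 without young Ly-HSC library 1, 1.12 without library 3 and 0.19 without the 4 libraries numbered 1. In My-HSCs Hdac7 differed by -0.62 ± 0.26 and Hdac6 by -0.77 ± 0.49, with limma adjusted p of 0.619 and 0.860. Hdac7 was at -0.38 without old My-HSC library 1.

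Regulators and substrates of the nuclear and cytosolic sirtuins were read from a list of 22 genes, 18 of them tested and none called in any comparison. Old against young, 8 were higher and 10 lower in each subset, with medians of -0.02 in Ly-HSCs and -0.09 in My-HSCs against 0.18 and 0.07 over all tested genes. Foxo3, the FOXO factor most studied in HSC maintenance, had 37.7, 59.3 and 61.1 FPKM in young and 35.3, 46.1 and 41.7 FPKM in old Ly-HSCs, and 54.0, 33.9 and 51.0 FPKM in young and 37.9, 44.4 and 40.9 FPKM in old My-HSCs. Ccar2, whose product inhibits SIRT1, ranged from 43.2 to 77.0 FPKM over the 12 libraries with overlap between all groups. Ctbp1, a transcriptional corepressor, had 51.9, 51.1 and 54.6 FPKM in young and 33.9, 32.3 and 36.7 FPKM in old Ly-HSCs (difference -0.60 ± 0.23, limma adjusted p = 0.286). Xrcc6 in the same comparison differed by 0.80 ± 0.30 (limma adjusted p = 0.285), and by 0.42 without young Ly-HSC library 1 and 0.29 without the 4 libraries numbered 1. In My-HSCs the smallest p values were those of Xrcc6 (-0.55 ± 0.30) and of Ppargc1b, a coactivator of mitochondrial genes (-0.70 ± 0.53), with limma adjusted p of 0.782 and 0.914. Ppargc1b was at -0.40 without young My-HSC library 3 and -1.07 without old My-HSC library 2.

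A list of 22 metabolic genes, mostly of mitochondrial enzymes on which SIRT3, SIRT4 or SIRT5 act, had 20 tested and none called in any comparison. In Ly-HSCs 11 were higher and 9 lower with age, and in My-HSCs 10 were higher and 10 lower, with medians of 0.03 and 0.00019 against 0.18 and 0.07 over all tested genes. Sod2, the mitochondrial superoxide dismutase, had 25.1, 23.7 and 6.86 FPKM in young and 9.50, 20.2 and 16.4 FPKM in old Ly-HSCs, and 27, 16.6 and 25.7 FPKM in young and 11.8, 24.1 and 22.9 FPKM in old My-HSCs. Idh2, the mitochondrial NADP-linked isocitrate dehydrogenase, ranged from 15.9 to 89.8 FPKM, both ends within young Ly-HSCs. Pdha1, a pyruvate dehydrogenase subunit, had 46.5, 60.2 and 51.1 FPKM in young and 76.2, 81.7 and 80.7 FPKM in old My-HSCs (difference 0.59 ± 0.21, limma adjusted p = 0.504). Acss2, an acetyl-CoA synthetase on the list although it is mainly nuclear and cytosolic, differed there by -0.51 ± 0.40 (limma adjusted p = 0.914), and by -0.80 and -0.34 without young or old My-HSC library 3. In Ly-HSCs Mlycd, malonyl-CoA decarboxylase, had 0, 7.77 and 1.35 FPKM when young and 18.6, 11.9 and 8.09 FPKM when old (difference 2.27 ± 0.92, limma adjusted p = 0.318, and 1.26 without the 4 libraries numbered 1). Got2, the mitochondrial aspartate aminotransferase, differed by 1.00 ± 0.41 (limma adjusted p = 0.329), and by 0.55 without young Ly-HSC library 1.

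Partners of SIRT7 and genes of the mitochondrial unfolded protein response came from a list of 23 genes, 22 of them tested and none called in any comparison. Old against young, 14 were higher and 8 lower in Ly-HSCs, and 13 were higher and 9 lower in My-HSCs, with medians of 0.17 and 0.10 against 0.18 and 0.07 over all tested genes. Nrf1, the transcription factor that recruits SIRT7 to mitochondrial protein genes, had 1.42, 16.1 and 9.03 FPKM in young and 8.00, 12.2 and 13.7 FPKM in old Ly-HSCs, and 15.3, 10.5 and 10.5 FPKM in young and 9.24, 9.23 and 10.9 FPKM in old My-HSCs. Hspd1, the matrix chaperonin, ranged from 92.6 to 128 FPKM over the 12 libraries. Hspe1, its co-chaperonin, had 22.1, 51.7 and 8.76 FPKM in young and 44.5, 61.6 and 60.5 FPKM in old Ly-HSCs, with age differences of 1.29 ± 0.55 in Ly-HSCs and 0.93 ± 0.55 in My-HSCs (limma adjusted p = 0.339 and 0.833). The former was 0.68 without young Ly-HSC library 3, and the latter 0.34 without young My-HSC library 1 and 0.51 without the 4 libraries numbered 1. Clpp, the matrix protease, was listed at 0 FPKM in young Ly-HSC library 1 and ranged from 17.2 to 61.0 FPKM elsewhere. Ddit3, the stress factor CHOP, differed in Ly-HSCs by 0.58 ± 0.22 (limma adjusted p = 0.292), and by 0.37 without young Ly-HSC library 3. Ubtf, a ribosomal RNA gene transcription factor, differed in My-HSCs by -0.30 ± 0.17 (limma adjusted p = 0.819), at -0.13 without young My-HSC library 1 and -0.14 without the 4 libraries numbered 1.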

How the data were processed

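RNA-seq of 12 libraries (4 groups of 3) was analysed from a table of FPKM values that the authors deposited. Per the submitters' processing notes, bcl2fastq 2.17, STAR, DESeq2 and builds GRCm38 and mm10 were named, without roles; the sources used here name no counter, annotation or strand setting. Libraries were grouped by their labels. Genes with at least 1 FPKM in at least 3 libraries (10900 of 14143) were analysed as log2(FPKM + 1) with limma 3.58.1 (R 4.3.3), with a mean for each group and a trended variance, and p-values were two-sided and Benjamini-Hochberg adjusted over all 10900 genes of a comparison. A gene was called at adjusted p under 0.05. The code was tested on simulated data. Whether each library came from separate mice beyond the labelled independent groups is not stated, so p-values measure the spread between these libraries.

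The members and gene lists were chosen with earlier results of these data known. Named genes are every sirtuin, every called list member, the 2 list members with the smallest p for age in each subset, a few key enzymes fixed by role, and for each sirtuin the 3 genes with the largest r. The comparison of the sirtuins with granulocyte markers, of Sirt3 with its neighbours, and the ages-by-subset values of Xrcc6 were chosen after their values were seen. Same-numbered libraries were compared by the correlation of their deviations from group means. It was 0.256, 0.233 and 0.210 between old Ly-HSCs and old My-HSCs and within 0.05 of 0 for every other pair of groups. Libraries of unlike number were not compared. Deviations within a group of 3 sum to 0, so a likeness of the old libraries numbered 1 can raise the values for numbers 2 and 3 too. Whether the numbers paired the old subsets beyond that was not tested. The fit reported had no replicate block, so SE and p for age averaged over both subsets do not allow for this correlation. Across genes, libraries of a group correlated at 0.706 to 0.965, so none was a copy of another. Gene positions came from GENCODE M21 and start windows from RefSeq (GRCm38.p6). All 7 identifiers matched, 6 of them with their version.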

Additional observations from a re-analysis of the deposited data

How the results depend on the processing

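No sirtuin was called under any of the 21 to 23 alternatives of the 7 comparisons, 2 of which (leaving out the 4 libraries numbered 1, and a replicate block in the 6 old libraries) were added after seeing the data. Of 707 recomputed sirtuin differences 664 kept their direction and 43 changed sign, with limma adjusted p from 0.0940 to 1. The replicate block left Sirt6 in old minus young Ly-HSCs at 1.60 (limma adjusted p = 0.298), and of the printed calls it ended that of Cd38 (limma adjusted p = 0.0703). Within the 6 old libraries, where same-numbered libraries were correlated, the block gave My-HSC minus Ly-HSC differences of -0.71 for Sirt7 (limma adjusted p = 0.374) and -0.32 for Sirt2 (limma adjusted p = 0.588). With a pseudocount of 0.1 and with TPM, the age difference of Sirt6 in Ly-HSCs was 2.57 and 2.26, still not called (limma adjusted p = 0.298 and 0.296). Quantile normalization moved the median of all genes by -0.19 for age in Ly-HSCs, -0.13 for subset in young mice and -0.15 for age averaged over subsets; other scalings moved it by less than 0.1. The number of genes called in all depended strongly on the settings, from 0 to 224 for age in Ly-HSCs (38 in the fit reported), 0 to 71 for age in My-HSCs (23), 0 to 299 for subset in young mice (13) and 0 to 69 for subset in old mice (3), 9 to 197 for age averaged (92), 15 to 111 for subset averaged (45) and 0 to 6 for the difference between age effects (0).

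Differences that changed sign follow, and the cause was not tested. For old minus young Ly-HSCs, the share of genes at 0 as covariate gave Sirt1 0.29, Sirt4 -1.31, Sirt5 -0.40, Got2 -0.28, Hspe1 -0.12 and Nmnat1 -0.13. Sirt2 became -0.062 with median-of-ratios scaling, -0.039 with quantile normalization and -0.0049 with TPM, and Sirt4 -0.12 with quantile normalization. Without the 4 libraries numbered 1, Sirt3 was 0.24 and Nmnat1 -0.089. For old minus young My-HSCs, Sirt5 was 0.038 with a pseudocount of 0.1, and without the libraries numbered 1 Sirt4 was 0.44 and Sirt5 1.35. For My-HSCs minus Ly-HSCs in young mice, the covariate gave Sirt3 0.13 and Sirt5 -0.083, quantile normalization Sirt3 0.015 and Sirt5 -0.044, median-of-ratios scaling Sirt1 -0.041, and leaving out the libraries numbered 1 Sirt1 -0.026, Sirt3 0.43 and Sirt5 -0.91. In old mice, leaving those out gave Sirt1 0.14 and Sirt4 -0.13. Leaving out 1 library at a time, the ranges that crossed 0 were, for old minus young Ly-HSCs, Sirt2 -0.29 to 0.20, Sirt3 -0.67 to 0.092, Sirt4 -0.11 to 1.34 and Sirt7 -0.61 to 0.28; for old minus young My-HSCs, Sirt4 -0.83 to 0.18 and Sirt5 -1.05 to 0.95; for subset in young mice, Sirt1 -0.18 to 0.22, Sirt3 -0.33 to 0.43, Sirt5 -0.54 to 1.46 and Sirt7 -0.65 to 0.25; and for subset in old mice, Sirt1 -0.36 to 0.28, Sirt4 -0.39 to 1.06 and Sirt5 -0.84 to 0.18. Where a group is left with 2 libraries, its spread is taken from all groups. Art4 averaged over both subsets was called for age without young Ly-HSC library 1 (0.74, limma adjusted p = 0.00929).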
